A study of Drosophila melanogaster with 3 samples.

Results

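The genes described are the nuclear transfer RNA (tRNA) genes of Drosophila melanogaster, taken as every gene of the Ensembl annotation that lies on a chromosome arm and has a symbol beginning with "tRNA:". They number 295 of 18277 genes on the arms, and 5 of the 295 are annotated as pseudogenes. Regions precipitated with the product of CG3838 were mapped by chromatin immunoprecipitation and sequencing (ChIP-seq) in whole embryos aged 0 to 24 h, of mixed sex and pooled from males and females. All embryos came from a stable transgenic line, strain CG3838-GFP, in which the protein carries green fluorescent protein at its C-terminal end. The labels describe a precipitation with an antibody against GFP, while their antibody field names CG3838. There were 3 biological replicates in 1 group, all carrying the tagged protein, so no line without the tag could be set beside them. Whole embryos mix many cell types and stages, and binding of the protein, open chromatin and the antibody itself cannot be told apart as sources of signal.

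Transfer RNA genes are short, occur in many near-identical copies and are often grouped in clusters. They are transcribed by RNA polymerase III from a promoter that lies inside the gene. The factor TFIIIC recognises the A box and the B box within the transcribed sequence and places TFIIIB just upstream of the start, TFIIIB recruits the polymerase, and a run of T residues after the gene ends transcription. Protein-coding genes, in contrast, are transcribed by RNA polymerase II from promoters around and upstream of their transcription start site (TSS).

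The gene sequences below are those of named tRNA genes whose A box, B box and terminator are set against summit positions further on, printed 5′ to 3′ on the strand of the gene from its first base to the end of the first T run, from the RefSeq dm6 genome. Capitals mark, in order, the A box (searched as TNGNNNAG), the B box (searched as GNTCNANNC) and the T run (TTTT or longer). The tyrosine gene lies at chr3R:8669054-8669174 on the minus strand, the valine gene at chr3R:19672261-19672349 on the minus strand, the glutamine gene at chrX:3427422-3427523 on the minus strand, the serine gene at chr2L:3172985-3173084 on the minus strand and the leucine gene at chr3R:24112964-24113071 on the plus strand.
tRNA:Tyr-GTA-1-8: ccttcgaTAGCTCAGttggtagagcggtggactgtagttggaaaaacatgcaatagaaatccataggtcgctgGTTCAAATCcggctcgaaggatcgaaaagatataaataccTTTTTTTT
tRNA:Val-CAC-2-5: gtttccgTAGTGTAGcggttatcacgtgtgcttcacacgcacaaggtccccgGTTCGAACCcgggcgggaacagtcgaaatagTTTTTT
tRNA:Gln-TTG-2-1: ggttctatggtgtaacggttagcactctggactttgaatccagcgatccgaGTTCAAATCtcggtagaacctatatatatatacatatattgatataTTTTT
tRNA:Ser-AGA-2-4: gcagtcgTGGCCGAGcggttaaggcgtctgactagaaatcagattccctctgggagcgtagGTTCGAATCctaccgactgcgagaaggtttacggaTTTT
tRNA:Leu-TAA-2-1: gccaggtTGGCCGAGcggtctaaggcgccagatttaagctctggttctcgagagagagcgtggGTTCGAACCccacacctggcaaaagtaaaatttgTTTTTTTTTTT
The glutamine gene has a B box and a terminator, but these A box letters were not found in it. The tyrosine gene holds an intron between its A box and its B box.

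The regions of highest signal at tRNA genes did not centre on these elements, and the 3 windows below, which extend 100 bp to either side, show the sequence around the summits instead. They are printed on the plus strand of dm6 and lie at chr3R:8669282-8669482 for the tyrosine gene, at chr3R:19671797-19671997 for the valine gene and at chrX:3427621-3427821 for the glutamine gene. Capitals mark a match to the E-box CAGCTG. None of the windows holds the DNA replication-related element (DRE, searched as TATCGATA) or the TATA box letters TATAAA on either strand.
tRNA:Tyr-GTA-1-8: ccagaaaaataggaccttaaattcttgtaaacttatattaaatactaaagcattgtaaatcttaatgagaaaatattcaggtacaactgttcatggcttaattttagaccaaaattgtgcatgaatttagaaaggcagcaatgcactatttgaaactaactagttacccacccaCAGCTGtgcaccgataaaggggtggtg
tRNA:Val-CAC-2-5: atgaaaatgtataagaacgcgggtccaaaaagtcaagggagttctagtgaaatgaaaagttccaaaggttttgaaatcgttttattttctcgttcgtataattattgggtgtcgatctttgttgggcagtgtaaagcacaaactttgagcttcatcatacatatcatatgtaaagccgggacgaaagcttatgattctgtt
tRNA:Gln-TTG-2-1: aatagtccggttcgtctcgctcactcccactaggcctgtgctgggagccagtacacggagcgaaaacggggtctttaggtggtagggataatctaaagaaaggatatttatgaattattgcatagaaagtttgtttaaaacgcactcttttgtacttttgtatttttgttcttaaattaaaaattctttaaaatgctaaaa
The tyrosine window has 1 E-box, and the valine and glutamine windows hold none of the 3 motifs. No window reaches the A box or the B box of its gene.

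The deposited lists give regions, each with a summit and a signal value of the authors on a scale that is not described. The signal is used here to rank and describe regions within 1 list and not to compare lists. The thresholded list holds 2239 regions and is made of the strongest regions of a pooled list of 15592. The lists of replicates 1, 2 and 3 hold 30000, 30000 and 21147. The lists carry no read counts, so depth is unknown. Replicate 3 stands apart from the others. It is the shortest list, and it holds 25 regions on the mitochondrial genome, among them 19 of its strongest 20 regions, whereas no other list has a mitochondrial region.

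Few tRNA genes lay near a region of high signal. A summit of the thresholded list lay within 500 bp of the TSS of 8 of the 295 tRNA genes (2.71%), compared with 11.6% of 13968 protein-coding genes and 3.41% of 4014 other non-protein-coding genes. These 8 genes shared 7 summits, so they are not independent observations. Protein-coding genes often have several annotated TSSs, each of which was counted, whereas a tRNA gene has 1. The share of tRNA genes was thus near that of other non-protein-coding genes and below that of protein-coding genes. With a replicate left out, the region also had to overlap the strongest 2239 regions of both others. This demand can only lower the count, and the thresholded list itself still came from all 3 replicates. The count was then 3 without replicate 1, 3 without replicate 2 and 5 without replicate 3.

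The replicates' own lists gave the same order against protein-coding genes at this level of signal. Among the strongest 2239 regions of replicate 1, 5 tRNA genes had a summit (1.69%, with 10.8% of protein-coding and 3.24% of other non-protein-coding genes). Replicate 2 had 12 (4.07%, with 10.8% and 3.54%), and replicate 3 had 7 (2.37%, with 12.3% and 2.96%). The mean was 2.71% ± 1.22 (SD, n = 3) for tRNA genes, 11.3% ± 0.891 for protein-coding genes and 3.25% ± 0.287 for other non-protein-coding genes. Every replicate therefore placed tRNA genes below protein-coding genes, by more than the spread between replicates. The difference from other non-protein-coding genes was within that spread and its sign was not the same in the 3 replicates. No test was run, since there is 1 group.

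**Figure D1:**
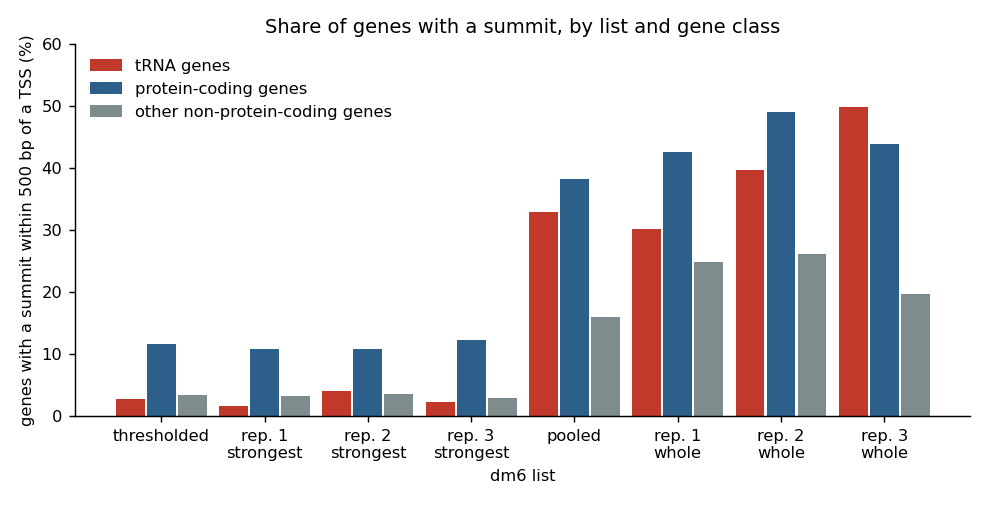
Share of genes (%) with a summit within 500 bp of a TSS in each dm6 list, for 295 tRNA genes, 13968 protein-coding genes and 4014 other non-protein-coding genes, with "strongest" standing for the strongest 2239 regions of a replicate. The tRNA bars are the lowest or near the lowest in the lists of strong regions (1.69% to 4.07%) and reach 49.8% in the whole list of replicate 3.

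With weaker regions included, tRNA genes approached protein-coding genes. In the pooled list, 97 tRNA genes (32.9%) had a summit within 500 bp, compared with 38.3% of protein-coding and 16% of other non-protein-coding genes. The 97 genes shared 71 distinct summits, and 48 of them had the same strongest summit as at least 1 other tRNA gene. When the pooled region also had to overlap a region of both other replicates, which can only lower the count, 68 genes were left without replicate 1. The count was 59 without replicate 2 and 61 without replicate 3. Taken from the strongest down, the first 500 pooled regions reached 1 tRNA gene (0.339%), the first 5000 reached 25 (8.47%) and the first 10000 reached 67 (22.7%). At 5000 regions the share of protein-coding genes was 21.1% and that of other non-protein-coding genes 6.93%, and at 10000 regions these were 31.1% and 11.6%. Most tRNA genes that had a summit were thus reached only beyond the first 5000 regions. From 5000 regions on, tRNA genes were reached more often than other non-protein-coding genes.

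The 3 whole replicate lists differed more over tRNA genes than over protein-coding genes. In replicate 1, 89 tRNA genes had a summit (30.2%), compared with 42.6% of protein-coding and 24.8% of other non-protein-coding genes. Replicate 2 had 117 (39.7%), compared with 49.1% and 26.1%. Replicate 3 had 147 (49.8%), compared with 43.9% and 19.7%, and was the only list in which tRNA genes were reached more often than protein-coding genes. The mean over whole lists was 39.9% ± 9.83 (SD, n = 3) for tRNA genes and 45.2% ± 3.41 for protein-coding genes, a difference within the spread between replicates.

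The lists were also compared at equal length, that of the whole list of replicate 3. Cutting replicates 1 and 2 to this length can only lower their counts, so a wider gap to replicate 3 follows from the cut. Among the strongest 21147 regions of each list, the length of the shortest, 68 tRNA genes (23.1%) had a summit in replicate 1, 84 (28.5%) in replicate 2 and 147 (49.8%) in replicate 3. Protein-coding genes gave 36.2%, 41.9% and 43.9%, and other non-protein-coding genes 18.5%, 19.8% and 19.7%. The mean for tRNA genes was 33.8% ± 14.2 (SD, n = 3). Among the strongest 5000 regions, 40 tRNA genes were reached in replicate 3, 21 in replicate 1 and 31 in replicate 2. At 10000 regions the tRNA share in replicate 3 was 32.5%, beside 31.7% of protein-coding genes, and at 15000 it was 36.9% beside 38.1%. At 10000 regions replicate 1 gave 11.5% beside 25.4% and replicate 2 gave 19.0% beside 29.6%. Replicate 3 is also the library with mitochondrial regions, and the part of this difference between libraries in the tRNA counts was not tested.

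**Figure D2:**
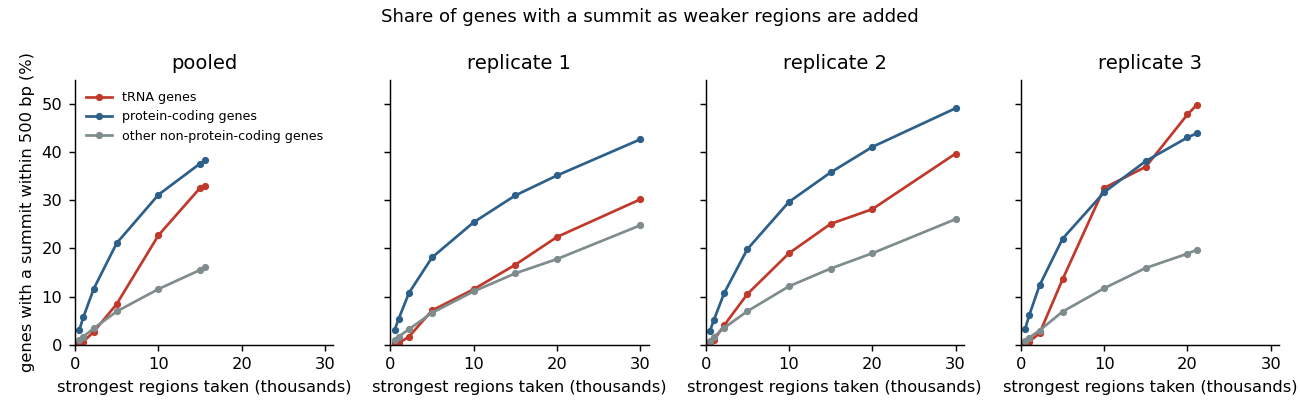
Share of genes (%) with a summit within 500 bp of a TSS against the number of strongest regions taken from the pooled list and from each replicate list (in units of 1000 regions), with 1 line for each gene class. In the pooled list and in replicates 1 and 2 the tRNA line stays below the protein-coding line, while in replicate 3 the lines run close together and cross, with 32.5% of tRNA and 31.7% of protein-coding genes at 10000 regions, 36.9% and 38.1% at 15000, and 47.8% and 43.0% at 20000.

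Support from the replicates varied from gene to gene. No replicate list had a summit at 103 tRNA genes (34.9%), 1 list had one at 84, 2 lists at 55 and all 3 lists at 53 (18.0%). All 3 lists had one at 27.7% of protein-coding genes and at 8.84% of other non-protein-coding genes. Of the genes found in 1 list alone, 11 were in replicate 1, 23 in replicate 2 and 50 in replicate 3. Among the 97 genes with a pooled summit, 48 had a summit in all 3 replicates, 37 in 2 and 12 in 1. Among the strongest 2239 regions, 2 genes were found in all 3 replicates. They were tRNA:Phe-GAA-1-2 and, with the higher signal in each replicate, tRNA:Tyr-GTA-1-8. At that level 2 other genes were found in 2 replicates, 14 in 1 and 277 in none.

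Signal at the tRNA genes reached was modest. Over the 97 genes with a pooled summit, the signal of the strongest one ran from 40.3 to 357.8, with a median of 58.0 and quartiles of 46.5 and 67.0. Protein-coding genes with a pooled summit had a median of 71.3 and other non-protein-coding genes 61.5, and the median of all pooled regions was 53.7. The medians for tRNA genes and protein-coding genes were 16.3 and 19.9 in replicate 1, 19.3 and 23.6 in replicate 2, and 21.3 and 25.5 in replicate 3. Among genes with a summit, the tRNA median was therefore below the protein-coding median in each of the 3 replicates. The strongest summit was taken over all annotated TSSs of a protein-coding gene and over 1 TSS of a tRNA gene. Such a search can raise the protein-coding values, and its part in these medians was not tested.

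The strongest summit at any tRNA gene was at tRNA:Tyr-GTA-1-8, which decodes tyrosine codons. The gene (FBgn0012024) lies on 3R from 8669081 to 8669174 on the minus strand, inside introns of pink (p), a gene of lysosome-related organelle biogenesis, and of CG8036. Its summit at 8669382 lay upstream, at position -208 bp from the tRNA start, and 236 bp upstream of the nearest TSS of CG8036. The summit itself was also inside introns of p and CG8036. The pooled signal was 357.8, rank 160 of 15592, and the signal was 84.7 in replicate 1, 170.9 in replicate 2 and 106.7 in replicate 3, at ranks 266, 111 and 213. All 3 replicates thus ranked it among their strongest 500 regions, and it was the tRNA gene of highest signal in the pooled list. The region, from 8669170 to 8669593, covers 5 bp of the gene, and its sequence around the summit is the E-box window printed above.

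The gene second in signal, tRNA:Phe-GAA-1-2 (FBgn0052740), lies on X from 6744471 to 6744543 on the minus strand, outside any protein-coding gene, and carries phenylalanine. Its summit at 6744300 lay 243 bp downstream of the tRNA start and 62 bp upstream of the TSS of RpL17, which encodes a protein of the large ribosomal subunit. The pooled signal was 168.7 (rank 848), and the replicates gave 43.7, 83.8 and 38.9 at ranks 1110, 543 and 2053. Its sequence is shared by 8 tRNA genes, whereas the tyrosine gene has a sequence of its own.

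The third summit, at tRNA:Val-CAC-2-5 (FBgn0012003, 3R from 19672277 to 19672349, minus strand), lay within an intron of Naam, a nicotinamidase gene, which also contains the tRNA gene. The pooled signal at 19671897 was 138.3, and the replicates gave 32.9, 48.1 and 27.4. This summit was 452 bp downstream of the tRNA start and 447 bp downstream of the Naam TSS, so it was as near to the protein-coding start as to the tRNA start. The region ended before the tRNA gene and covered none of it.

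Summits far from any protein-coding TSS were found at 2 of the 8 genes. The summit at tRNA:Glu-TTC-1-5 (FBgn0011849, 2R from 19727460 to 19727531, minus strand) was intergenic at 19727229, 302 bp downstream of the tRNA start and 13153 bp from the nearest protein-coding TSS, that of CG8517. Its pooled signal was 130.5, and the replicates gave 24.8, 38.9 and 58.7. The summit at tRNA:Gln-TTG-2-1 (FBgn0052493, X from 3427452 to 3427523, minus strand) was at 3427721, upstream at position -198 bp from the tRNA start and inside introns of CG12535 and of the non-coding gene lncRNA:CR44999. It lay 8086 bp from the nearest protein-coding TSS, that of CG14269, and had a pooled signal of 127.6 with 29.8, 67.4 and 36.6 in the replicates. Neither gene shared its summit with another tRNA gene.

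The remaining 3 genes had summits of lower signal beside protein-coding starts on 2R. At tRNA:His-GTG-1-3 (FBgn0050251, 12334995 to 12335066, minus strand) the summit at 12335219 lay upstream, at position -153 bp from the tRNA start, and 97 bp upstream of the TSS of CG8490. Its pooled signal was 107.7 and the replicates gave 27.2, 40.4 and 35.3, and its region covered 60 bp of the gene, the most of the 8. A summit at 18639347 with a pooled signal of 107.4 served both tRNA:Trp-CCA-2-2 (FBgn0050227, 18639557 to 18639628, plus strand) and tRNA:Gly-GCC-1-9 (FBgn0011868, 18639726 to 18639796, minus strand). It was upstream of the tryptophan gene, at position -210 bp, 449 bp downstream of the start of the glycine gene and 77 bp upstream of the TSS of CG30122. Around the tryptophan gene the replicates gave 38.3, 48.4 and 35.5, and around the glycine gene 38.3, 32.7 and 35.5, replicate 2 having a different strongest summit for each.

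The 6 tRNA genes next in pooled signal lay below the threshold of the authors' list, which ends at a signal of 103.5. tRNA:Ile-AAT-1-3, inside ATP8A, a phospholipid flippase gene, had a pooled signal of 99.1, and 23.4, 59.3 and 23.1 in the replicates. Its pooled summit lay 139 bp from a TSS of ATP8A itself. tRNA:Trp-CCA-2-6 and tRNA:Gly-GCC-1-13 shared a summit of 95.8 that lay 173 bp from the TSS of tud, the germ plasm gene tudor, with 30.5, 33.9 and 23.2 in the replicates. tRNA:Pro-CGG-2-3, inside non-stop (not), a deubiquitinase gene, had 88.3 and is the only one of the 14 named genes with a summit at its own start, 1 bp inside the gene. It had no summit in replicate 1, and 42.7 and 30.4 in the others. The pooled summit of this proline gene lay 448 bp from the TSS of CG13380. tRNA:Ser-AGA-2-4 had 85.4, with 20.8 in replicate 1, 38.6 in replicate 3 and a value between these in replicate 2. tRNA:Leu-TAA-2-1 had 81.9 with none in replicate 1, 32.2 in replicate 2 and 39.4 in replicate 3. The leucine summit lay 389 bp from the TSS of CG13605, and the serine summit lay 994 bp from that of CG31698.

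**Figure D3:**
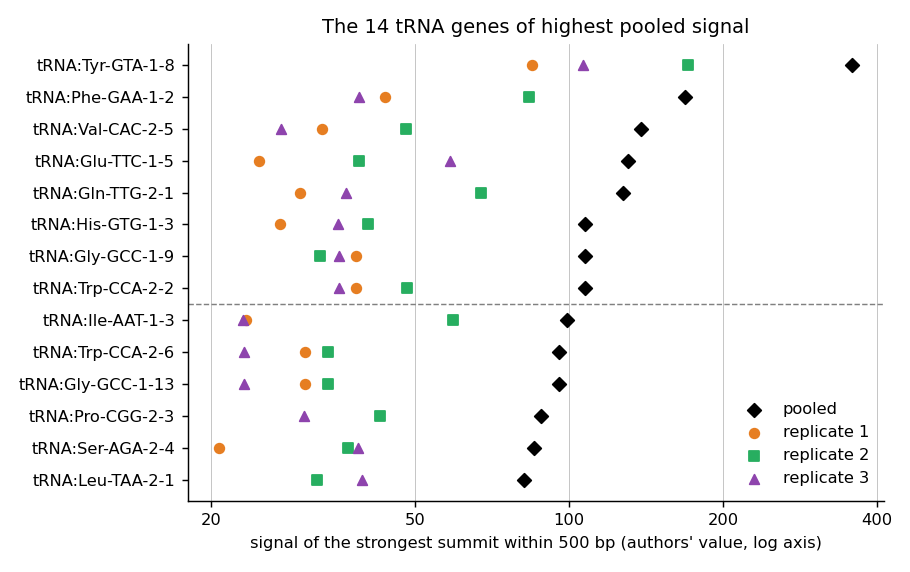
Signal of the strongest summit within 500 bp of the TSS (authors' value, log axis) for the 14 tRNA genes of highest pooled signal, with a diamond for the pooled list and 1 symbol for each replicate; the dashed line separates the 8 genes with a thresholded summit. tRNA:Tyr-GTA-1-8 stands apart at 357.8 in the pooled list, and in the replicates its values of 84.7, 170.9 and 106.7 are above those of the other 13 genes in the same replicate.

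Most summits of the thresholded list at tRNA genes were close to a protein-coding promoter. A protein-coding TSS lay within 500 bp of the summit for 6 of the 8 genes, or 5 of 7 summits, while 1202 of all 2239 thresholded summits (53.7%) had one that near. Counted from the genes, 33 tRNA genes have a protein-coding TSS within 500 bp of their own, and 5 of these (15.2%) had a thresholded summit, compared with 3 of the other 262 (1.15%). These counts are small, and the genes sharing a summit are counted separately.

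Over the pooled list the shares with and without a neighbouring promoter were closer, and their order depended on the distance taken. Of the 33 tRNA genes near a protein-coding TSS, 13 had a pooled summit (39.4%), compared with 84 of the 262 others (32.1%), a ratio of 1.23. The replicates gave 12, 17 and 19 of the 33 (36.4%, 51.5% and 57.6%) and 77, 100 and 128 of the 262 (29.4%, 38.2% and 48.9%). The ratio was thus 1.24, 1.35 and 1.18, above 1 in 3 of 3 replicates, with a mean of 1.26 ± 0.0870 (SD). The direction turned with a narrower distance, added after seeing the data. Of the 7 tRNA genes with a protein-coding TSS within 250 bp, 1 had a pooled summit (14.3%), compared with 96 of the 288 others (33.3%). The replicates then gave 28.6%, 28.6% and 42.9% beside 30.2%, 39.9% and 50% of the others. Among the 113 tRNA genes with no protein-coding TSS within 5000 bp, 40 had a pooled summit (35.4%) and 2 a thresholded one. Of the 71 distinct pooled summits at tRNA genes, 16 (22.5%) lay within 500 bp of a protein-coding TSS, compared with 34.0% of all pooled summits, and the median distance was 2652 bp beside 1354 bp. Pooled summits at tRNA genes, the thresholded ones among them, were therefore mostly away from protein-coding starts, as were all pooled summits. Most tRNA genes lie away from such starts themselves, and the part of this was not tested. In the replicate lists the shares near a protein-coding TSS were 21.2%, 21.3% and 15.5% for tRNA summits and 21.0%, 25.5% and 30.6% for all summits on the arms, so the shares were nearly equal in replicate 1.

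Counted by gene, summits at tRNA genes showed little preference for the start or the body of the gene. For the 97 genes with a pooled summit, the strongest was upstream of 40 genes (41.2%), inside 10 (10.3%) and downstream of 47. The median position was 60 bp downstream of the TSS, with quartiles of -216 and 261. These genes had 71 distinct strongest summits, and a shared summit was counted for each gene at its own position. The gene body takes up 7.54% of the 500 bp windows on either side. A summit lay within 100 bp of the TSS in 18 cases (18.6%), where 20.1% of the window lies. At protein-coding genes, 75.4% of strongest pooled summits were upstream of the TSS and 33.6% were within 100 bp of it, with a median position of -113. Other non-protein-coding genes had 54.8% upstream, a median of -33 and 21.9% within 100 bp.

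The replicates gave median positions of 34, 17 and 69 bp at tRNA genes, with the summit inside 9, 8 and 16 genes. At the 8 genes with a thresholded summit, the summit was upstream of 4 genes and downstream of 4, from -210 to 452 bp. In no case was it inside the gene or within 100 bp of its TSS. Regions, which have a median width of 424 bp in the pooled list, covered at least 1 bp of the tRNA gene for 47 of the 97 genes (48.5%). The counts were 39 of 89 (43.8%) in replicate 1, 52 of 117 (44.4%) in replicate 2 and 92 of 147 (62.6%) in replicate 3. Replicate 3 thus differed from the others also in how often its regions reached the gene itself. Its regions were also the widest, with median widths of 404, 416 and 444 bp in replicates 1, 2 and 3. The part of width in these counts was not tested. Chromatin was sheared to 200 to 800 bp, which limits how finely a summit can be placed beside a gene with a median length of 73 bp.

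**Figure D4:**
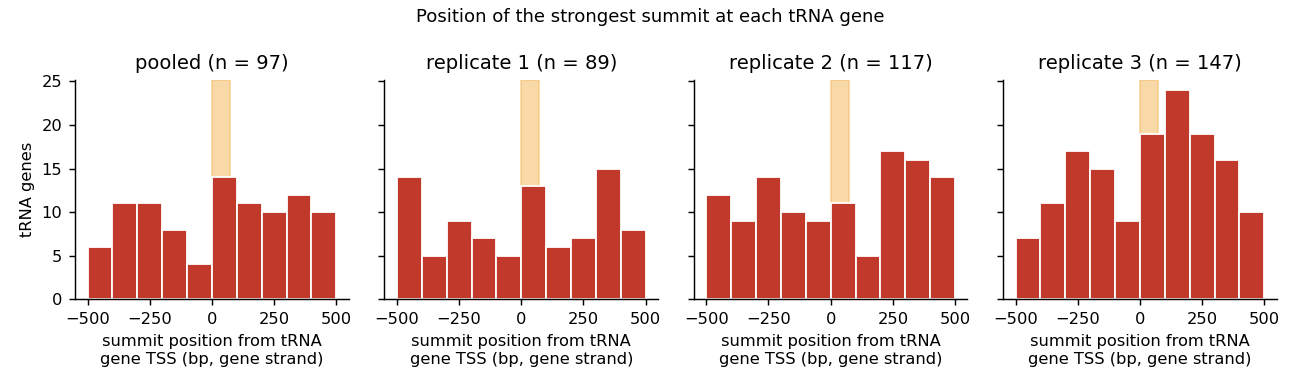
Position of the strongest summit relative to the tRNA gene TSS (bp, along the strand of the gene) in bins of 100 bp, as the number of tRNA genes, for the pooled list and each replicate; the shaded band marks a gene of the median length of 73 bp. A summit shared by several genes is counted for each of them. Positions spread over the whole window in each list, with pooled quartiles of -216 and 261 bp.

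Many tRNA genes lie in clusters, and clusters were reached more often than genes standing alone. With tRNA genes up to 5000 bp apart joined, the 295 genes form 146 units, of which 77 are lone genes and 69 are clusters that together hold 218 genes. A pooled summit lay at 36 of the 69 clusters (52.2%), at 12 of the 16 clusters of 4 or more genes (75%) and at 22 of the 77 lone genes (28.6%). A cluster offers more windows than a lone gene, so the shares per gene are given as well. They were 28.6% of lone genes, 30.8% of 120 genes in clusters of 2 to 3 and 38.8% of 98 genes in clusters of 4 or more. The 7 units with a thresholded summit were 4 clusters and 3 lone genes.

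At equal list length the replicates did not share this order. The shares of lone genes, of genes in clusters of 2 to 3 and of genes in clusters of 4 or more were 26.0%, 22.5% and 21.4% in replicate 1, and 31.2%, 25.0% and 30.6% in replicate 2. In replicate 3 they were 35.1%, 51.7% and 59.2%. At this length a rise with cluster size was thus seen in replicate 3 and not in replicates 1 and 2. In the whole lists, genes in clusters of 4 or more had the highest share in each replicate, with 35.7%, 44.9% and 59.2%, compared with 31.2%, 37.7% and 35.1% of lone genes. The order in replicates 1 and 2 therefore depended on how many weak regions were taken. Beside this stand the mitochondrial regions of replicate 3, whose part was not tested.

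Neighbouring genes in the largest clusters shared several of their pooled summits. The cluster of 11 genes that begins with tRNA:Val-CAC-1-1 (3R from 17617761 to 17631750) codes for tRNAs of 4 amino acids, and 5 of its genes had a pooled summit, with 3 distinct summits of signal 42.4 to 65.7. Replicate 1 had a summit at 3 of its genes, replicate 2 at 5 and replicate 3 at 8. All 5 genes with a pooled summit are the first 5 of the cluster. The highest value, 65.7, was shared by tRNA:Ala-AGC-2-2 and tRNA:Pro-TGG-1-2, with 15.2, 32.9 and 31.9 in the replicates.

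The other cluster of 11 genes, which begins with tRNA:Arg-ACG-1-2 (2R from 6161535 to 6171759), had pooled summits at 6 genes, with signals of 42.7 to 63.4, and at 6, 6 and 8 genes in the replicates. Its genes tRNA:Asn-GTT-1-5, tRNA:Asn-GTT-1-6 and tRNA:Lys-CTT-1-2 shared a pooled summit of 63.3. tRNA:Lys-CTT-1-4 and tRNA:Ile-AAT-1-1 shared the summit of 63.4, with 14.6, 25.5 and 22.6 in the replicates. Both summits thus lay near genes for different amino acids.

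The cluster of 8 genes that begins with tRNA:iMet-CAT-1-1 (2R from 19725620 to 19729353) holds the thresholded summit of tRNA:Glu-TTC-1-5 described above, and its genes lie at least 11615 bp from any protein-coding TSS. In it, 6 genes had a pooled summit, with signals of 49.0 to 130.5, and 4, 6 and 7 had one in the replicates. The initiator methionine genes tRNA:iMet-CAT-1-1 and tRNA:iMet-CAT-1-2, whose product starts translation, shared a summit of 78.5 with tRNA:Glu-TTC-1-4. In replicates 1 and 2 this group of genes had 18.2 and 30.1, and in replicate 3 the value of 29.5 was found at tRNA:iMet-CAT-1-2 and tRNA:Glu-TTC-1-4 but not at tRNA:iMet-CAT-1-1. Of the 3 largest clusters, this was the one with a thresholded summit.

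The clusters of 7 genes show how far replicates could differ within 1 cluster, and were chosen after their values were seen. In the cluster that begins with tRNA:Ile-AAT-1-3 (2R from 13430282 to 13432794), the pooled list, replicate 1 and replicate 2 each had a summit at the first and the last gene, and replicate 3 had one at all 7. The values found in replicate 3 alone ran from 15.2 at tRNA:Leu-CAA-2-1 to 23.1 at tRNA:Ile-AAT-1-5, beside a median of 18.3 over all regions of that list. In the cluster that begins with tRNA:Arg-TCG-2-1 (X from 14014814 to 14017284) no gene had a pooled summit. There the replicates had weak summits at 3, 2 and 3 of the first 3 genes, and tRNA:Ser-CGA-1-1 had 13.5, 18.5 and 21.8. The 4 genes tRNA:Arg-TCG-3-1 to tRNA:Arg-TCG-3-4 of this cluster had no summit in any list.

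**Figure D5:**
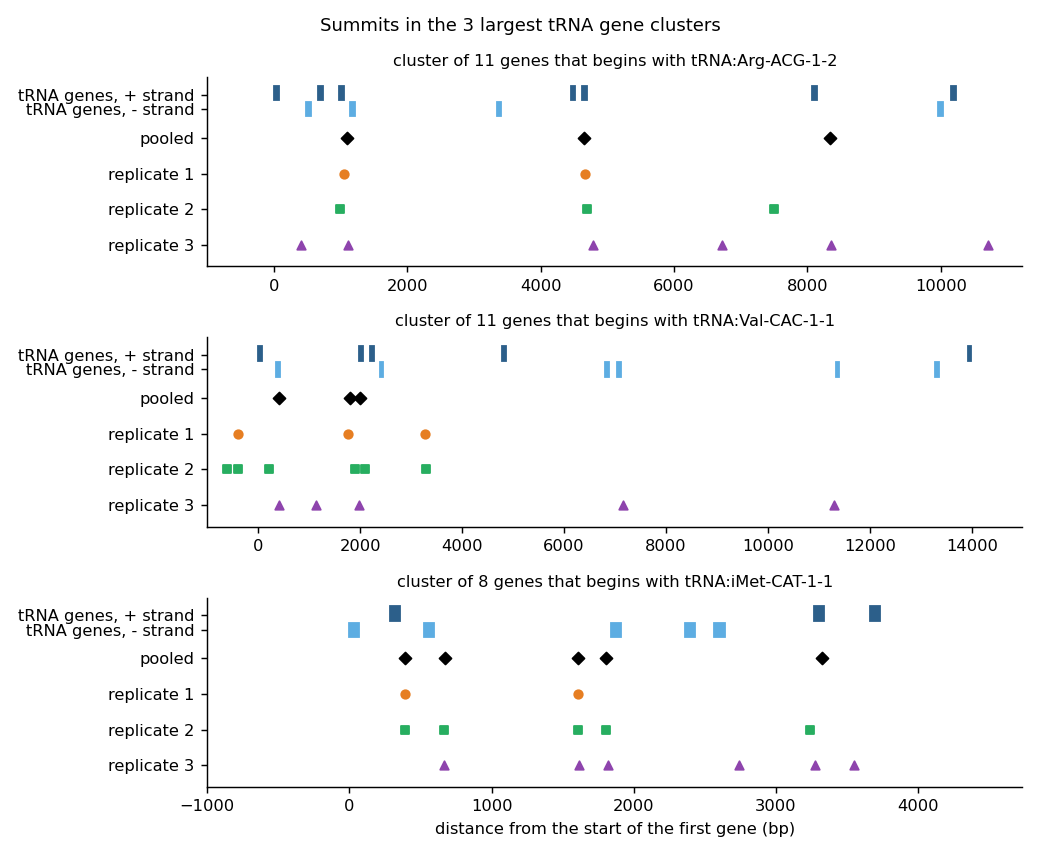
The 3 largest tRNA gene clusters, drawn to scale by distance from the start of the first gene (bp), with tRNA genes on each strand as blocks and the summits of the pooled list and of each replicate as symbols below. Summits fall between as well as on genes, and in the cluster that begins with tRNA:Val-CAC-1-1 the pooled summits lie at its first 5 genes.

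Shares differed among the kinds of tRNA gene, and these splits are given as descriptions. By amino acid, the pooled share was highest for proline, with 10 of 17 genes (58.8%), and proline genes had 8, 8 and 10 in the replicates. Phenylalanine and tryptophan genes had 4 of 8 each, while 1 of 10 tyrosine, 1 of 6 histidine and 1 of 7 cysteine genes had a pooled summit, and the selenocysteine gene had none in any list. The strongest summit of all was thus at a member of one of the groups least often reached in the pooled list. Tyrosine genes had 20%, 40% and 20% in the replicates, beside 30.2%, 39.7% and 49.8% of all tRNA genes. By arm, 41 of 100 genes on 2R had a pooled summit (41%), 15 of 41 on 2L, 26 of 79 on 3R, 12 of 49 on 3L and 3 of 26 on X (11.5%). The X genes had 9, 6 and 6 in the replicates, and 2 of the 8 genes with a thresholded summit were on X. On 2R the replicates had 34, 52 and 69.

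Genes inside a protein-coding gene numbered 137, of which 37 had a pooled summit, compared with 60 of the 158 outside. The replicates did not all have this order, with 35, 57 and 70 inside and 54, 60 and 77 outside, or 25.5%, 41.6% and 51.1% beside 34.2%, 38.0% and 48.7%. Of the 16 genes with an intron, 4 had a pooled summit, compared with 93 of the 279 without. Of the 5 pseudogenes, 1 had one.

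The number of identical copies bears on how reads can be placed. The 295 genes have 100 distinct sequences, 57 genes have a sequence of their own, and the most frequent sequence occurs 13 times. A pooled summit lay at 18 of the 57 genes with a unique sequence (31.6%), at 9 of 58 with 2 to 4 copies (15.5%) and at 70 of 180 with 5 or more (38.9%). The replicates gave 28.1%, 38.6% and 42.1% for unique genes, 19.0%, 34.5% and 44.8% for 2 to 4 copies, and 34.4%, 41.7% and 53.9% for 5 or more. Genes with 5 or more copies were therefore reached more often than unique ones in the pooled list and in the whole lists of 3 of 3 replicates. The thresholded list did not have this order, with 6 of 180 (3.33%) and 2 of 57 (3.51%). A short read from inside a copied gene could belong to any copy. How such reads were placed is not given in the sources used here, and its part in these counts was not tested.

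The elements of the internal promoter were present in nearly all tRNA genes, with a summit near or without. The A box letters were found in 261 of 295 genes (88.5%), and in the first 73 bp of 20.9% of protein-coding genes. The B box letters were found in 292 (99.0%), compared with 4.43%. Genes with and without a pooled summit had an A box in 82.5% and 91.4% of cases and a B box in 97.9% and 99.5%. A run of 4 T residues was found within 30 bp after the gene in 281 cases (95.3%), with 95.9% and 94.9% for genes with and without a pooled summit. The elements were searched on the strand of the gene, and no test of these shares was run.

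Promoter motifs of RNA polymerase II genes in the same windows around summits, searched on both strands, had shares at tRNA genes near those of all pooled summits. The DRE was found at 1 of the 71 pooled summits at tRNA genes (1.41%), beside 2.36% of all pooled summits and 3.89% of all thresholded ones. The TATA box letters were found at 21 (29.6%), beside 27.7% and 34.4%, and the E-box at 7 (9.86%), beside 10.2% and 9.07%. Each of the 3 motifs was found at 1 of the 7 thresholded summits at tRNA genes, among them the E-box at the tyrosine gene. The GC content was 39.4% at pooled summits of tRNA genes and 41.0% at all pooled summits.

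Of the protein-coding genes that make and use tRNA, those of the RNA polymerase III machinery had a thresholded share above the protein-coding background, while those of tRNA processing and aminoacylation had a share near it. Of 22 genes for subunits and factors of RNA polymerase III, 6 had a thresholded summit within 500 bp of a TSS (27.3%, with 11.6% of all protein-coding genes) and 13 a pooled one (59.1%, with 38.3%). The replicate lists had 10, 14 and 18 of the 22, or 45.5%, 63.6% and 81.8%, beside backgrounds of 42.6%, 49.1% and 43.9%. In replicate 1 the share was thus near the background. The list was chosen with earlier results of these data known, so its share is a description. Bdp1 and Brf, both subunits of TFIIIB, had signals of 410.3 and 295.3. In the replicates Bdp1 had 129.6, 162.4 and 114.0, and Brf had 85.6, 107.3 and 100.2.

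The signal at Bdp1 was above that of every tRNA gene in each of these lists except in replicate 2, where tRNA:Tyr-GTA-1-8 had 170.9. CG7099 followed with 273.0 and with 80.8, 78.7 and 121.3 in the replicates. Of the polymerase subunits, Polr3E had 163.4 and Polr3F 122.2. Maf1, a repressor of the polymerase, had a weak pooled summit of 45.5 and none past the threshold. No list had a summit at Polr3A, which encodes the largest subunit, or at Trf, a relative of the TATA-binding protein.

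Of 18 matched genes of tRNA processing and modification, 2 had a thresholded summit (11.1%) and 10 a pooled one (55.6%, with 38.3% of all protein-coding genes). The replicates had 10, 11 and 14, or 55.6%, 61.1% and 77.8%, beside 42.6%, 49.1% and 43.9%. The 2 with a thresholded summit were Archease, a cofactor of tRNA ligation, with 112.7, and CG2100, with 109.6. RNaseZ, which trims the 3′ end of tRNA precursors, had a pooled summit of 89.8, and La, which binds their 3′ end, had 80.8. Of 37 matched aminoacyl-tRNA synthetases and cofactors, which load tRNAs with their amino acids, 4 had a thresholded summit (10.8%) and 17 a pooled one (45.9%, with 38.3%). The replicates had 16, 23 and 22, or 43.2%, 62.2% and 59.5%, beside 42.6%, 49.1% and 43.9%, which is at the background in replicate 1. The thresholded summits were at IleRS at 214.9, GluProRS at 210.8, SerRS at 196.3 and ThrRS at 166.3. Both thresholded shares were near the background of 11.6%.

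Other genes transcribed by RNA polymerase III split into the 5S ribosomal RNA genes, none of which had a summit within 500 bp of its TSS, and 9 others. Of these 9, 1 had a thresholded summit (11.1%, with 3.41% of other non-protein-coding genes) and 4 a pooled one (44.4%, with 16%), and each replicate list reached 4. The split was made after the values were seen, and over all 109 genes the shares are 0.917% and 3.67%. The thresholded summit was at snRNA:7SKa, whose RNA restrains transcription elongation, with a signal of 104.5 and 31.8, 37.7 and 34.3 in the replicates. The others with a pooled summit were the spliceosomal genes snRNA:U6:96Ab and snRNA:U6:96Ac, which shared a summit of 80.4, and RNaseMRP:RNA, with 61.8. The 100 genes of 5S ribosomal RNA had no summit within 500 bp of a TSS in any list. They are near-identical tandem copies, and how reads from them were placed is not given in the sources used here.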

How the data were processed

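ChIP-seq regions of 3 biological replicates were read from 5 lists on dm6. The authors, per the README files deposited for each sample, called peaks and background regions on each replicate and on the pooled replicates against 1 control file, and filtered the pooled regions by the irreproducible discovery rate. The deposited signal of a region is the authors' own value. Which aligner, caller and filter threshold were used is not given in the sources used here. Depth is unknown. The control library was not analysed here, and the dm3 lists were not used here.

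Genes came from Ensembl release 115 and sequences from the dm6 RefSeq genome. With Python 3.11.15, pandas 2.3.3 and numpy 2.4.6, the strongest summit within 500 bp of a TSS was taken for each gene and list. Shares of genes were set beside those of protein-coding and other non-protein-coding genes. No test was run. Replicate values carry an SD over 3. The counting was tested on simulated regions. The strongest 2239 regions of replicate 3 include its mitochondrial regions.

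Named are the tRNA genes with a thresholded summit, those found in the strongest 2239 regions of all 3 replicates, the 6 next in pooled signal, the 3 largest clusters, the nearest protein-coding genes and the members of the lists with a thresholded summit. The values of 1 list member are not reported here. The other genes named were chosen after their values were seen. The members and lists were chosen with earlier results of these data known. The list of RNA polymerase III factors has 22 genes, and of 20 genes for tRNA processing and 39 for synthetases 18 and 37 were matched by name, 1 of them by a synonym. Alternatives were other windows, region overlap, list lengths, cluster gaps and leaving out each replicate.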

Additional observations from a re-analysis of the deposited data

Results flagged for a closer look

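The list of replicate 3 holds 25 regions on the mitochondrial genome, which lies outside the comparisons of nuclear genes, and the lists of the other replicates, the pooled list and the thresholded list hold none. The highest has a signal of 2812, the highest of that list, and 19 of its strongest 20 regions are mitochondrial. All 22 mitochondrial tRNA genes have such a summit within 500 bp in replicate 3. The same list reached more nuclear tRNA genes than the others, 147 beside 89 and 117. Whether these values are connected was not tested.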

How the results depend on the processing

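The count of tRNA genes with a thresholded summit, 8, became 5 with a window of 250 bp, 18 with 1000 bp and 1 with the strongest 500 regions, and 11 when any overlap of a region with the window counted. With a replicate set aside it ranged from 3 to 5, as regions also had to overlap those of both others. The pooled count of 97 became 57 with 250 bp, 137 with 1000 bp and 118 by overlap, and ranged from 59 to 68 under the same demand. That demand can only lower a count, and both lists still came from all 3 replicates. These changes follow from fewer or more sequence and regions being taken. The mean share in the replicates' strongest regions, 2.71%, became 39.9% over whole lists, 33.8% at equal list length, 1.36% with 250 bp and 5.08% with 1000 bp, and ranged from 2.03% to 3.22% with a replicate left out. The ratio of 1.23 for genes near a protein-coding TSS became 1.35 in replicate 2, and the cause was not tested. It was 1.15 when near meant within 1000 bp and, in an alternative chosen after seeing the data, turned to 0.429 within 250 bp, where 7 genes are near. The count of 6 genes whose summit lay near a protein-coding TSS was 5 at 250 bp and 6 at 1000 bp, and the 7 units with a thresholded summit stayed 7 with genes joined up to 1000 or 20000 bp. Without the pseudogenes, an alternative chosen after seeing the data, the first 3 values were 8, 96 and 2.76%. No paired analysis was possible because there is 1 group and no test. Unknown depth limits what the absence of a summit means.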
